A study of Mus musculus with 14 samples.

Results

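Fdft1 encodes squalene synthase, the enzyme that commits the mevalonate pathway to sterols, and its signal was higher in the hearts of every Irx mutant genotype than in Irx5+/- hearts. The genes described here are Fdft1 and other genes of cholesterol synthesis, its control by sterol regulatory element binding proteins (SREBPs) and sterol transport. The list holds 28 genes, and it was selected on the higher Fdft1 signal in all mutant groups, to ask whether the pathway moved with Fdft1. Of these, 27 had a probe set that names 1 gene, out of 19931 genes tested, and Acat2 did not. Fdft1 and Idi1 had a pair of probe sets each, of which the one with the higher mean signal was used.

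Hearts of mouse embryos at E12.5 (the embryonic day) were measured on Affymetrix Mouse Gene 1.0 ST arrays, 14 in all. The reference was Irx5+/-, which carries 1 mutated Irx5 allele (3 arrays). The mutants were Irx3-/-;Irx5+/- (4 arrays), which lack Irx3 and carry the same heterozygous Irx5, Irx5-/- (3 arrays) and the double mutant Irx3-/-;Irx5-/- (4 arrays). No group in the series is wild type, so Irx5 is mutated on at least 1 allele throughout, and Irx3 and Irx5 are homeodomain transcription factors of the Iroquois family. The labels do not say how the alleles were made or whether hearts were pooled. They do not say if arrays stand for separate embryos either, and p-values then reflect no more than the spread between these samples, which may be technical.

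Cells make cholesterol from acetyl-CoA through mevalonate, isoprenoid diphosphates, squalene and lanosterol. When membrane sterol falls, Scap escorts SREBP to the Golgi for cleavage, and the released factor raises transcription of most enzymes of the pathway. Insig proteins hold Scap back when sterol is plentiful, so the enzymes are known to rise and fall together in many cell types.

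Whole-series values that touch these genes are as follows. Array medians ran from 7.89 to 7.99 in log2 intensity. The Irx3 signal was 8.43 to 8.53 on reference arrays and 7.60 to 8.17 on arrays of both Irx3-/- groups. In Irx5-/- hearts, which carry Irx3, it was 8.14 to 8.25, also below the reference and overlapping the Irx3-/- arrays. The Irx5 signal was 8.19 to 8.41 on reference arrays and 7.52 to 8.43 on arrays of both Irx5-/- groups, which overlapped the reference. Where these probe sets lie relative to the mutated parts is not given in these sources. The description of Irx3-/-;Irx5+/- replicate 4 names another genotype, Irx5-/-, than its title, and it was kept in the group of its title.

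Cell type markers differed between the groups. All 20 sarcomere genes had higher means in each mutant group than in the reference, with array means of the list from 10.23 to 12.00 in the reference, 11.44 to 12.24 in Irx3-/-;Irx5+/-, 11.58 to 12.59 in Irx5-/- and 12.01 to 12.47 in the double mutant. The sarcomere mean of reference replicate 3 was the 10.23. Of 14 endothelial genes, 13, 14 and 14 were lower in the same order of mutants, and the list's array means ran from 10.49 to 10.76 in the reference, 10.15 to 10.63, 9.68 to 9.99 and 9.44 to 10.34. Of 11 measured genes of G2 and mitosis, 2, 9 and 11 were higher. Blood genes, of which 6 were measured, averaged 7.34 to 7.43 on reference arrays and 7.18 to 9.04 on mutant arrays. The 7 measured hepatocyte genes, markers of the body's main site of sterol synthesis, averaged 7.03 to 7.25 on every array. Of 7 epicardial genes, 4, 5 and 6 were higher in the 3 mutants, and their array means ran from 8.88 to 9.40 in the reference, 8.71 to 9.41, 7.97 to 9.96 and 8.52 to 10.42. Neural genes, of which 5 were measured, averaged 7.49 to 7.89 on every array. The part of endothelial, epicardial, blood and dividing cells in the differences of the sterol genes was not tested. In whole hearts, fewer cells of a type and less RNA per cell cannot be told apart.

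The deposited values hold no sequences, so promoters of members were taken from RefSeq (GRCm38.p6), as the 250 bases before each start. Of 27 members, 22 had an entry, with 30 promoters among them. Fdft1, Fdps, Sqle, Stard4 and Npc1 had none, so their promoters were not searched. The 3 shown belong to Hmgcs1, the member that holds a match to a classic sterol regulatory element, Sc5d, which was higher on all mutant arrays, and Mvk, which was lower on all of them. They lie at chr13:119690101-119690350 (plus strand), chr9:42264301-42264550 (minus strand) and chr5:114444019-114444268 (plus strand), in that order. Capitals mark matches on either strand to TCACNCCAC (the sterol regulatory element), CCAAT (the box bound by NF-Y) and GGGCGG (the box bound by Sp1), and each is written 5′ to 3′.
Hmgcs1: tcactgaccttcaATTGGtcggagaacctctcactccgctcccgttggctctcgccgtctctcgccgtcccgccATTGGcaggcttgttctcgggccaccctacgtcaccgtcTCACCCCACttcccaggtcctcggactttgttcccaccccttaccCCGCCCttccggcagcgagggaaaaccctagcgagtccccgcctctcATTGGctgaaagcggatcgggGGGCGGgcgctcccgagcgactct
Sc5d: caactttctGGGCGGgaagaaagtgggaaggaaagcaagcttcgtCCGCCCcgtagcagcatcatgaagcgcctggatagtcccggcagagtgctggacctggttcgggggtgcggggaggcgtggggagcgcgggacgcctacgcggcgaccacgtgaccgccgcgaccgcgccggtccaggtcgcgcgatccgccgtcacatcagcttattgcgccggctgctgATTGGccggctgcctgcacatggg
Mvk: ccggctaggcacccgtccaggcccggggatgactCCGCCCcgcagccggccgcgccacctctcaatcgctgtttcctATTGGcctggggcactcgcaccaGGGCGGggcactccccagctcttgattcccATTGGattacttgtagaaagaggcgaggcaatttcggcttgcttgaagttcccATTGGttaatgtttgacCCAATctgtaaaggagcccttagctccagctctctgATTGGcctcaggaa

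The sterol regulatory element letters were found in 1 of the 22 members with a promoter, Hmgcs1, starting 137 bases before the start, and in 1.05% of all 32851 promoters in the table. The CCAAT letters were found in 21 of the 22 members, against 33.8% of all promoters and 38.8% of the 15610 tested genes that had one. The GGGCGG letters were found in 20 of the 22, against 32.7% and 49.3%. The Sc5d promoter held 1 CCAAT and 2 GGGCGG matches, and the Mvk promoter 5 and 2. A match describes these letters in this window and is not a measured binding site.

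Fdft1 was measured by a pair of probe sets. The main one read 9.37, 9.32 and 9.61 on the reference arrays, 10.30, 10.01, 9.82 and 9.92 on Irx3-/-;Irx5+/- arrays, 10.20, 10.42 and 10.35 on Irx5-/- arrays, and 10.30, 10.49, 10.53 and 10.66 on double mutant arrays. Every mutant array lay above every reference array, and the double mutant had the highest group mean. The other probe set read 8.30, 8.58 and 8.84 in the reference, 9.65, 9.13, 8.97 and 9.19 in Irx3-/-;Irx5+/-, 9.37, 9.61 and 9.88 in Irx5-/-, and 9.87, 10.08, 9.74 and 10.07 in the double mutant, again with no overlap between mutants and reference. Log2 differences from the reference were 0.58, 0.89 and 1.06 for the main probe set and 0.66, 1.05 and 1.37 for the other, in the same order of mutants. The differences of the main probe set chose this gene list and are a description with no test.

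**Figure D1:**
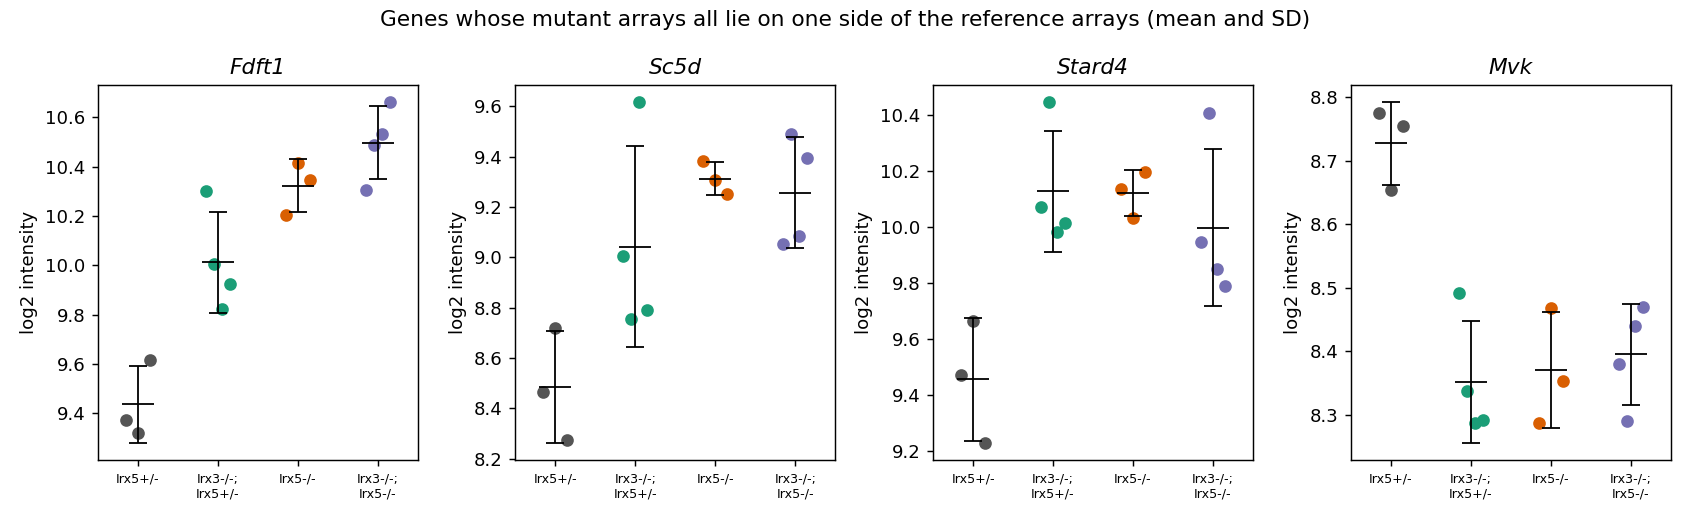
Log2 intensity of Fdft1, Sc5d, Stard4 and Mvk (vertical axis, a separate scale for each gene) by genotype (horizontal axis). Points are arrays, and bars give the group mean and SD. Every mutant array lies above the 3 Irx5+/- arrays for Fdft1, Sc5d and Stard4 and below them for Mvk.

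Fdft1 is left out of the counts that follow, because its own contrasts with the reference chose the list. No other sterol gene passed a Benjamini-Hochberg adjusted p of 0.05 in limma, the test used throughout, in any comparison. The share of all genes called was 0% in Irx3-/-;Irx5+/- against the reference, 0% in Irx5-/- and 0.0201% in the double mutant. At an unadjusted p under 0.05 in limma, 4 of the other 26 members passed in Irx3-/-;Irx5+/-, where 5.07% of all genes did. The count was 9 of 26 in Irx5-/- hearts, where 10.6% of all genes passed, and 5 of 26 in the double mutant, where 13.5% did. The 3 comparisons use the same 3 reference arrays and are not independent of each other.

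Members tended to positive differences. The median log2 difference over the other 26 members was 0.08, 0.19 and 0.17 in Irx3-/-;Irx5+/-, Irx5-/- and the double mutant against the reference, beside 0.00, -0.03 and -0.03 over all genes. Of these 26, 17, 24 and 24 had a difference above 0, beside 9973, 8846 and 8754 of all 19931 genes. These counts over all genes are also the background for the positive and negative counts of the other lists compared with the reference. The sarcomere mean differed between the same groups, and with it as a term in the fit the median over all 27 members was -0.02, 0.11 and 0.08, against 0.08, 0.19 and 0.18 without it. In Irx3-/-;Irx5+/- the median was 0.0055 without its replicate 1 and 0.022 without Irx5+/- replicate 3. The mean of the 26 per array was 9.03 to 9.15 in the reference, 9.10 to 9.38 in Irx3-/-;Irx5+/-, 9.29 to 9.42 in Irx5-/- and 9.21 to 9.33 in the double mutant. The ranges overlapped between the reference and Irx3-/-;Irx5+/-, and the other mutant groups lay above the reference.

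Few members separated all mutant arrays from the reference. Of the other 26 members, 2 (Sc5d and Stard4) lay above every reference array on all 11 mutant arrays, as 0.803% of all genes did. Mvk lay below, as 0.522% did. Fdft1, which chose the list, also lay above. Without Irx5+/- replicate 2, 4 of the other 26 lay above, as 2.28% of all genes did. Without replicate 3 also 4 did, beside 1.75%. Group by group, 2 of the other 26 members lay above every reference array in Irx3-/-;Irx5+/- (Sc5d and Stard4), where 2.86% of all genes did. In Irx5-/-, 9 of 26 did (Hmgcs1, Mvd, Fdps, Sqle, Lss, Hsd17b7, Sc5d, Insig1 and Stard4), against 6.71%. In the double mutant 5 of 26 did (Hmgcs1, Pmvk, Sc5d, Stard4 and Npc2), against 6.48%. Mvk was the 1 member below every reference array in each mutant group, where 2.87%, 9.52% and 5.58% of all genes were.

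**Figure D2:**
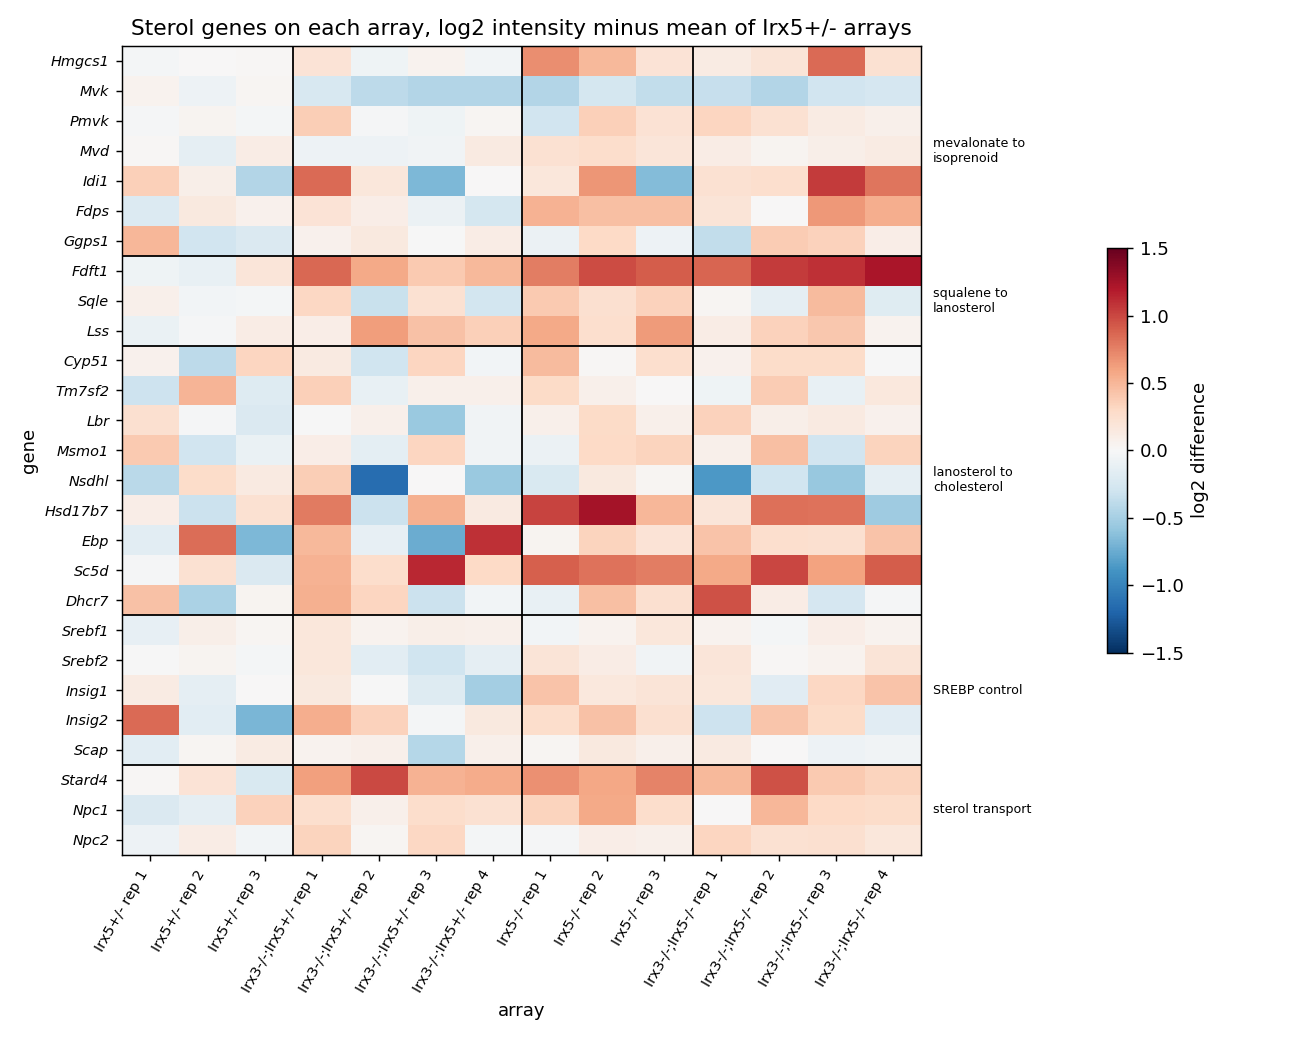
Log2 intensity minus the mean of the Irx5+/- arrays (colour) for 27 genes (rows, in order of their roles) on 14 arrays (columns, by genotype). Fdft1, Sc5d and Stard4 are red and Mvk is blue on all 11 mutant arrays. Lss and Npc1 are also above 0 on all 11, by little on some, and the other rows mix both colours.

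Of the 7 measured enzymes of the mevalonate segment, from Hmgcs1 to the isoprenoids, 4, 6 and 6 had positive differences in the 3 mutants. The medians were 0.04, 0.10 and 0.19. Mvk, mevalonate kinase, read 8.78, 8.65 and 8.75 on the reference arrays, 8.49, 8.34, 8.29 and 8.29 in Irx3-/-;Irx5+/-, 8.29, 8.47 and 8.35 in Irx5-/-, and 8.38, 8.29, 8.44 and 8.47 in the double mutant. All mutant arrays were below the reference, and the mutant groups overlapped one another. Its log2 differences were -0.38 ± 0.09, -0.36 ± 0.09 and -0.33 ± 0.09 (SE of the limma fit over 14 arrays), with adjusted p = 0.673, 0.254 and 0.164. Its direction was thus opposite to that of Fdft1, and with the sarcomere mean as a term the differences were -0.43, -0.42 and -0.41.

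Hmgcs1, the synthase that forms HMG-CoA, read 10.23, 10.26 and 10.27 in the reference, 10.46, 10.19, 10.31 and 10.22 in Irx3-/-;Irx5+/-, 10.95, 10.75 and 10.46 in Irx5-/-, and 10.38, 10.44, 11.10 and 10.48 in the double mutant. Irx5-/- and double mutant arrays lay above the reference and Irx3-/-;Irx5+/- arrays overlapped it, with log2 differences of 0.47 ± 0.17, 0.35 ± 0.16 and 0.04 ± 0.16. Fdps, which makes farnesyl diphosphate, the substrate of Fdft1, read 9.30, 9.66 and 9.57 in the reference, 9.71, 9.61, 9.42 and 9.25 in Irx3-/-;Irx5+/-, 10.02, 9.96 and 9.95 in Irx5-/-, and 9.70, 9.52, 10.15 and 10.05 in the double mutant. Only the Irx5-/- arrays of Fdps stood wholly above the reference. Mvd, the mevalonate diphosphate decarboxylase, read 8.40, 8.25 and 8.50 in the reference and 8.61, 8.64 and 8.57 in Irx5-/-. Its values in the other mutants, 8.30 to 8.52 and 8.42 to 8.51, overlapped the reference. Limma's adjusted p for Hmgcs1, Fdps and Mvd in Irx5-/- was 0.388, 0.373 and 0.432.

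The other 3 enzymes of this segment had wide or small differences. Idi1, the isopentenyl diphosphate isomerase, differed by 0.09 ± 0.36, 0.06 ± 0.38 and 0.58 ± 0.36 from the reference, and its arrays ran from 7.67 to 8.47 within the reference alone. Pmvk, the kinase after Mvk, differed by 0.08 ± 0.15, 0.10 ± 0.16 and 0.19 ± 0.15. Ggps1, which makes geranylgeranyl diphosphate for protein prenylation, differed by 0.08 ± 0.20, 0.05 ± 0.22 and 0.12 ± 0.20. None of the 3 passed an unadjusted p of 0.05 in limma in these comparisons.

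Squalene is carried on to lanosterol by Sqle and Lss. Lss, which closes the ring to form lanosterol, read 7.16, 7.24 and 7.36 in the reference, 7.35, 7.88, 7.69 and 7.61 in Irx3-/-;Irx5+/-, 7.82, 7.51 and 7.89 in Irx5-/-, and 7.36, 7.60, 7.65 and 7.31 in the double mutant. Irx5-/- was the 1 group with no array in the range of the reference, and the log2 differences were 0.38 ± 0.14, 0.49 ± 0.15 and 0.23 ± 0.14 (limma adjusted p = 0.929, 0.332 and 0.517). Sqle, squalene epoxidase, read 9.67, 9.56 and 9.58 in the reference, 9.92, 9.26, 9.83 and 9.33 in Irx3-/-;Irx5+/-, 9.99, 9.84 and 9.95 in Irx5-/-, and 9.63, 9.46, 10.08 and 9.42 in the double mutant. Sqle therefore straddled the reference in both groups that lack Irx3, with log2 differences of -0.02 ± 0.18 and 0.05 ± 0.18, and was 0.33 ± 0.19 higher in Irx5-/-.

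Of 9 enzymes from lanosterol to cholesterol, 7, 8 and 8 had positive differences, and Sc5d had the smallest p of them in each mutant. Sc5d, the desaturase that makes 7-dehydrocholesterol from lathosterol, read 8.46, 8.72 and 8.27 on the reference arrays, 9.00, 8.75, 9.62 and 8.79 in Irx3-/-;Irx5+/-, 9.38, 9.31 and 9.25 in Irx5-/-, and 9.05, 9.49, 9.08 and 9.40 in the double mutant. The gap to the reference was narrow in Irx3-/-;Irx5+/- and wider in both other mutants. Log2 differences were 0.56 ± 0.19, 0.83 ± 0.20 and 0.77 ± 0.19, with limma adjusted p = 0.887, 0.252 and 0.148. With the sarcomere mean as a term they were 0.60, 0.87 and 0.83, and without Irx3-/-;Irx5+/- replicate 3, the 9.62, the first was 0.36.

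Hsd17b7, a 3-ketosteroid reductase of the pathway, read 9.03, 8.61 and 9.16 in the reference, 9.71, 8.61, 9.46 and 9.07 in Irx3-/-;Irx5+/-, 9.94, 10.18 and 9.43 in Irx5-/-, and 9.11, 9.76, 9.75 and 8.40 in the double mutant. It lay above the reference in Irx5-/- alone, by 0.92 ± 0.35 (limma adjusted p = 0.403), and spread widely in the others. Nsdhl, a dehydrogenase of C4 demethylation, was the 1 gene of this segment with negative differences in all 3 mutants, -0.33 ± 0.30, -0.02 ± 0.32 and -0.47 ± 0.30, and its groups overlapped. Dhcr7, which makes cholesterol from 7-dehydrocholesterol and so acts right after Sc5d, differed by 0.12 ± 0.29, 0.19 ± 0.31 and 0.20 ± 0.29. The sterol demethylase Cyp51 (0.03, 0.25 and 0.15), the sterol reductases Tm7sf2 (0.10, 0.12 and 0.09) and Lbr (-0.13, 0.15 and 0.16), the methyl oxidase Msmo1 (0.06, 0.18 and 0.14) and the isomerase Ebp (0.18, 0.19 and 0.34) had log2 differences that did not pass an unadjusted p of 0.05 in limma.

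**Figure D3:**
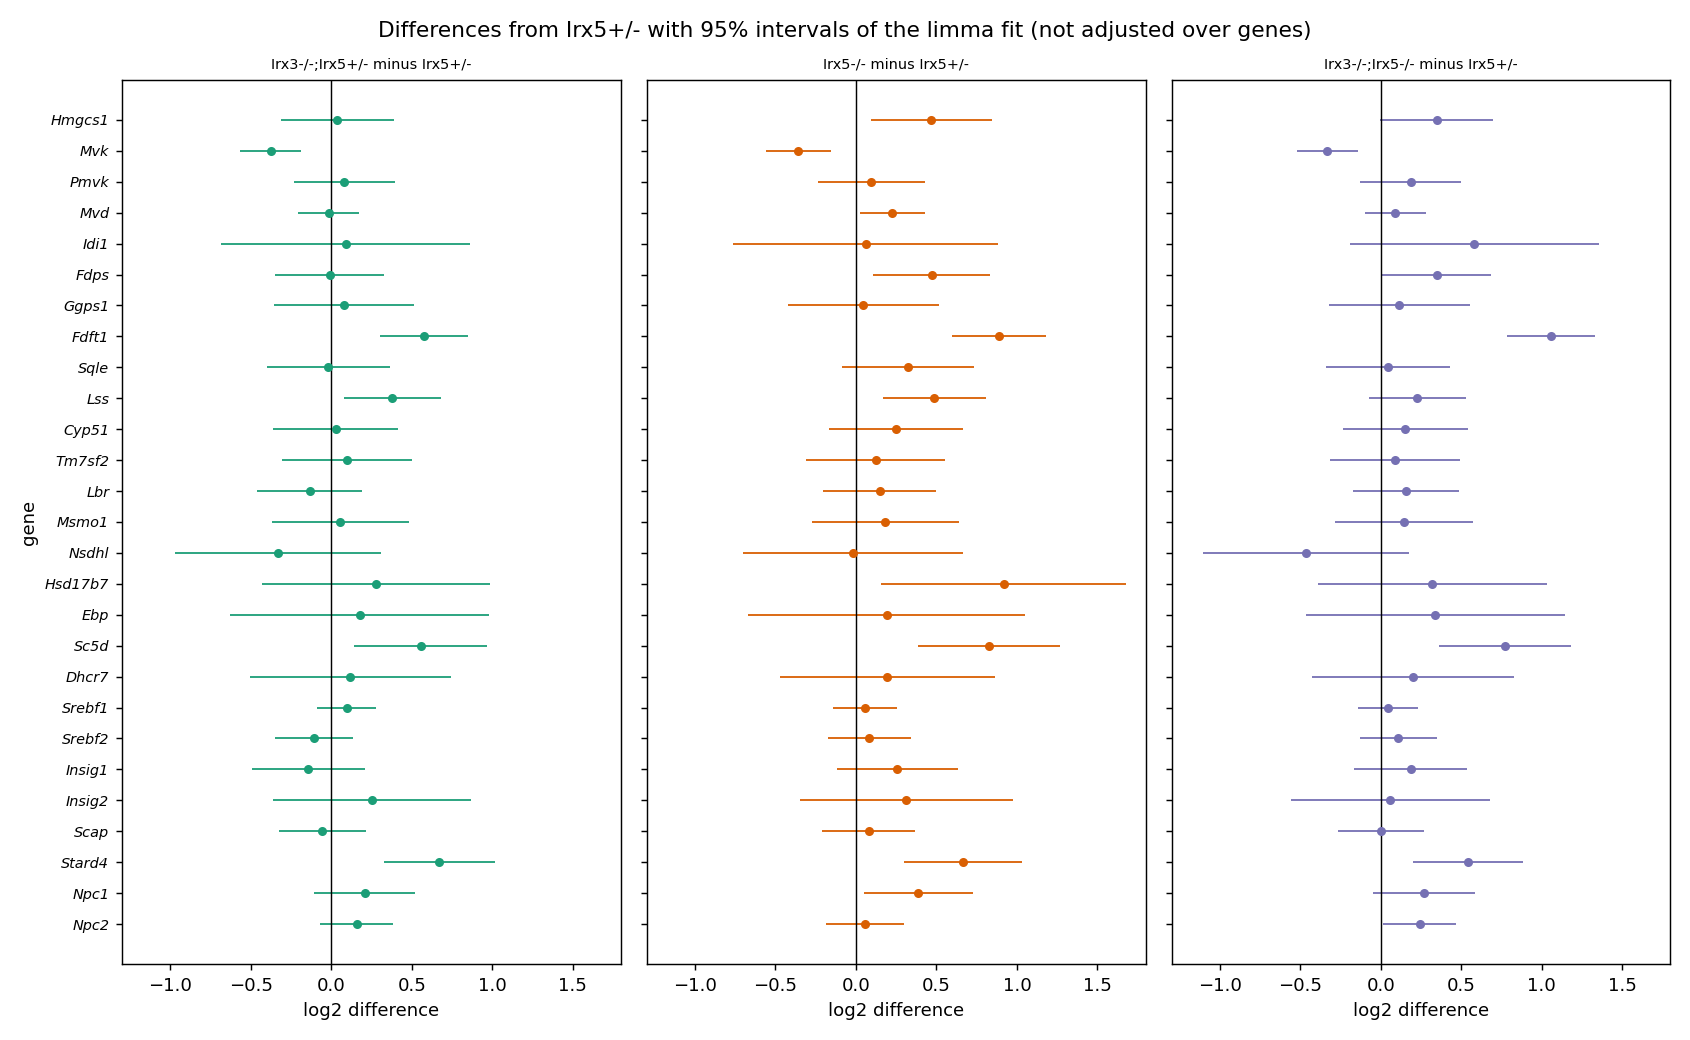
Log2 difference from Irx5+/- (horizontal axis, with 95% intervals of the limma fit, not adjusted over genes) for 27 genes (vertical axis) in each mutant group (panels). Intervals lie above 0 in all 3 panels for Fdft1, Sc5d and Stard4, and below 0 for Mvk.

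Of the 5 genes that control SREBP, 2, 5 and 5 had positive differences in the 3 mutants, with medians of -0.06, 0.08 and 0.06. Srebf2, the SREBP that mainly drives sterol genes, read 9.75, 9.80 and 9.73 in the reference, 9.93, 9.60, 9.46 and 9.62 in Irx3-/-;Irx5+/-, 9.95, 9.87 and 9.70 in Irx5-/-, and 9.95, 9.77, 9.81 and 9.95 in the double mutant, with overlap in every mutant group. Insig1, the retention protein that is itself a target of SREBP, read 9.81, 9.55 and 9.69 in the reference, 9.83, 9.68, 9.49 and 9.18 in Irx3-/-;Irx5+/-, 10.11, 9.84 and 9.87 in Irx5-/-, and 9.85, 9.52, 9.99 and 10.11 in the double mutant. Insig1 was above the reference on all arrays in Irx5-/- alone, by 0.26 ± 0.18. Srebf1, which mainly serves fatty acid genes, differed by 0.10 ± 0.09, 0.06 ± 0.09 and 0.04 ± 0.09, and Scap, the escort, by -0.06 ± 0.13, 0.08 ± 0.13 and 0.00 ± 0.13. Insig2 ran from 8.63 to 10.16 within the reference, and its differences of 0.25, 0.31 and 0.06 were smaller than their errors or close to them. At an unadjusted p under 0.05 in limma, 0 of these 5 genes passed in any of the 3 comparisons, where 5.07%, 10.6% and 13.5% of all genes did. For 5 genes this count is near those shares. It concerns transcripts and not SREBP cleavage.

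Among sterol transport genes, Stard4 stood with Sc5d. Stard4, a soluble carrier that moves cholesterol between membranes, read 9.47, 9.66 and 9.23 in the reference, 10.07, 10.45, 9.98 and 10.01 in Irx3-/-;Irx5+/-, 10.14, 10.03 and 10.19 in Irx5-/-, and 9.95, 10.40, 9.85 and 9.79 in the double mutant. All mutant arrays were above the reference and the mutant groups overlapped. Log2 differences were 0.67 ± 0.16, 0.67 ± 0.17 and 0.54 ± 0.16 (limma adjusted p = 0.673, 0.252 and 0.185), and 0.64, 0.64 and 0.50 with the sarcomere mean as a term.

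Npc1 and Npc2 export cholesterol from lysosomes. Npc1 read 9.24, 9.33 and 9.81 in the reference, 9.71, 9.54, 9.73 and 9.69 in Irx3-/-;Irx5+/-, 9.80, 10.03 and 9.72 in Irx5-/-, and 9.47, 9.96, 9.75 and 9.74 in the double mutant, so that every mutant group overlapped reference replicate 3. Npc2 read 10.54, 10.73 and 10.58 in the reference, 10.94, 10.64, 10.92 and 10.58 in Irx3-/-;Irx5+/-, 10.60, 10.71 and 10.69 in Irx5-/-, and 10.94, 10.84, 10.86 and 10.78 in the double mutant. Npc2 cleared the reference in the double mutant alone, by 0.24 ± 0.10 (limma adjusted p = 0.337).

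Between mutant groups, the reference arrays entered only the shared spread of the limma fit. Fdft1 was 0.48 ± 0.12 higher in the double mutant than in Irx3-/-;Irx5+/- (limma adjusted p = 0.389). Its values in the mutant groups also helped choose the list, so its differences between them are descriptions. Fdps was 0.36 ± 0.15 higher (0.612 by the same adjustment), Insig1 0.33 ± 0.15 and Srebf2 0.22 ± 0.10 higher. None passed, while 0.00502% of all genes did, and at an unadjusted p under 0.05 in limma 1 of the other 26 members (Fdps) and 7.67% of all genes did. Of the other 26 members, 20 had positive differences, beside 8874 of all 19931 genes. Their median was 0.08, beside -0.02 over all genes. The mevalonate segment had 7 of 7 positive with a median of 0.11, among them Mvk (0.04 ± 0.08) and Ggps1 (0.03 ± 0.19). The counts were 2 of 3 from squalene to lanosterol with Fdft1 counted and 7 of 9 from lanosterol to cholesterol. They were 3 of 5 for SREBP control and 2 of 3 for sterol transport.

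Between the double mutant and Irx5-/- hearts, Fdft1 differed by 0.17 ± 0.13, and the members with the smallest p were Lss (-0.26 ± 0.14), Hsd17b7 (-0.60 ± 0.33), Npc2 (0.18 ± 0.10) and Sqle (-0.28 ± 0.18), all with limma adjusted p of 1.00. No member and 0% of all genes passed, and at an unadjusted p under 0.05 in limma 0 of 26 members and 3.63% of all genes did. Of the other 26 members, 9 had a difference above 0, beside 10517 of all 19931 genes.

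The interaction compares what the loss of Irx3 did with and without a working Irx5 allele (double mutant minus Irx5-/-, less Irx3-/-;Irx5+/- minus Irx5+/-). It uses the reference arrays that chose Fdft1, so its value for Fdft1, -0.40, is a description. For the others it was -0.80 ± 0.23 for Stard4, -0.64 ± 0.20 for Lss, 0.40 ± 0.13 for Mvk and -0.61 ± 0.27 for Sc5d. The same reference arrays enter these 4 values, which are not independent of the differences from the reference given above. No member and 0% of all genes passed the adjusted threshold in limma, and at an unadjusted p under 0.05 these 4 of 26 members and 4.04% of all genes did. For Stard4, Lss and Sc5d the difference on loss of Irx3 was positive in Irx5+/- hearts (0.67, 0.38 and 0.56) and negative in Irx5-/- hearts (-0.12, -0.26 and -0.06), with an interaction that missed the adjusted threshold. The last of these, for Sc5d, turned sign in 2 of 21 alternative settings, where it reached 0.011.

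Whether members vary with Fdft1 between hearts of 1 genotype is a question that the choice of genes did not use. Each gene's deviations from its group means were correlated with those of Fdft1 over 14 arrays, with 2-sided exact permutation tests over all 20736 reorderings within groups. Of 26 members 23 had Pearson's r above 0, with a median of 0.14, and 0 passed after Benjamini-Hochberg adjustment over the 26. The correlations were not run over all genes, so the 23 of 26 has no background share and is a description. Mvk had the strongest relation, r = 0.76 (exact permutation p = 0.0111, adjusted p = 0.290) and Spearman's rho = 0.71 (exact permutation p = 0.0190, adjusted p = 0.493), and r was 0.66 without the 2 arrays farthest from the median of Fdft1. With replicate 1 or 2 of the double mutant left out, 1 member passed. The sign of r for Mvk within genotypes was positive, while its differences between mutants and reference had the opposite sign to those of Fdft1. In the same test Sc5d and Stard4, which separated mutants from reference as Fdft1 did, had r = -0.26 and -0.25 with it within genotypes (exact permutation p = 0.522 and 0.451).

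Run over the members only, the same test against the mean of the sarcomere genes was passed by 1 of 27. Idi1 varied with it at r = 0.77 (exact permutation p = 0.00106, adjusted p = 0.0286) and rho = 0.85, and r was 0.85 without the 2 arrays farthest from the median. No member passed without Irx5+/- replicate 1, 2 or 3, without replicate 2 or 3 of Irx3-/-;Irx5+/- or without replicate 1 or 3 of the double mutant. Fdft1 itself had r = 0.10 with the sarcomere mean (exact permutation p = 0.773) and rho = 0.26 (exact permutation p = 0.432), and r was 0.60 without the 2 arrays farthest from the median, so the value depends on those arrays. The differences of Fdft1 with that mean as a term in the fit were 0.55, 0.86 and 1.03.

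**Figure D4:**
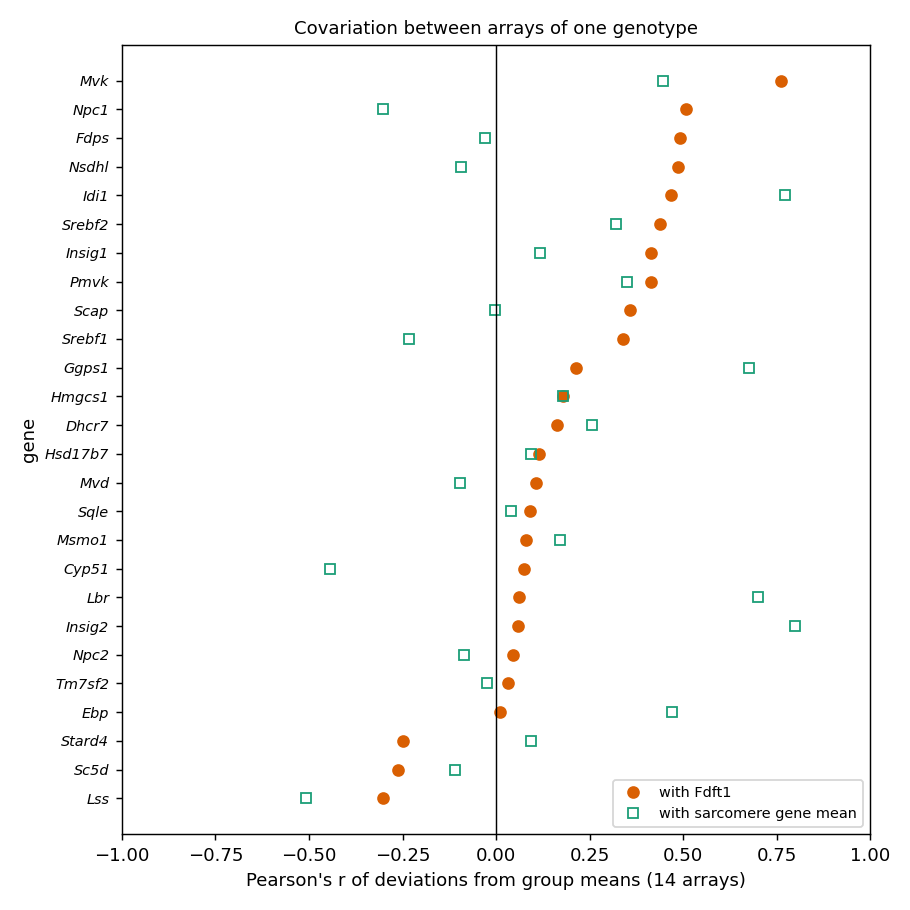
Pearson's r (horizontal axis) of each gene's deviations from its group means over 14 arrays, with Fdft1 (filled circles) and with the mean of the sarcomere genes (open squares), for 26 genes (vertical axis) in order of the former. Mvk has the highest r with Fdft1, and Lss, Sc5d and Stard4 have the lowest.

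Related pathways were counted for context from lists that hold no member. Of 12 fatty acid genes, which Srebf1 is known to drive, 6, 8 and 7 had positive differences in the 3 mutants, and 0, 1 and 1 were higher at an unadjusted p under 0.05 in limma, where 2.85%, 5.99% and 7.9% of all genes were. The 1 gene was Elovl6, a fatty acid elongase, with log2 differences of 0.54 ± 0.25, 0.94 ± 0.27 and 0.96 ± 0.25 (limma adjusted p = 0.979, 0.312 and 0.163). Of 6 measured genes of sterol efflux, esterification and the liver X receptors, which oppose sterol loading, 3, 3 and 4 were negative in the 3 mutants and 0, 1 and 2 were lower at the unadjusted threshold, as 2.22%, 4.66% and 5.56% of all genes were. The 2 in the double mutant were the cholesterol exporter Abca1, with differences of -0.13 ± 0.16, -0.14 ± 0.17 and -0.61 ± 0.16 in the 3 mutants (limma adjusted p = 1.00, 0.758 and 0.158), and Mylip, a ligase that degrades lipoprotein receptors. Mylip differed by -0.50 ± 0.28, -0.61 ± 0.30 and -0.87 ± 0.28 (limma adjusted p = 0.999, 0.484 and 0.210). Of 11 measured genes that use isoprenoids, 6, 10 and 7 were positive, among them the prenyltransferase Coq2 of ubiquinone synthesis (0.44 ± 0.11, 0.34 ± 0.12 and 0.25 ± 0.11) and the Rab prenylation subunit Rabggtb (0.38 ± 0.16, 0.55 ± 0.17 and 0.53 ± 0.16). Dhdds, of dolichol synthesis, had differences of -0.47 ± 0.16, -0.27 ± 0.17 and -0.53 ± 0.16. Of 7 measured genes of SREBP processing and its degradation partners, 3, 5 and 3 were positive. None of the genes on these 4 lists passed the adjusted threshold in limma in any comparison.

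Genes beside Fdft1 on its chromosome were counted as well. Over the 10 tested genes on each side, the median log2 difference from the reference was -0.05, -0.02 and -0.04 in the 3 mutants. At an unadjusted p under 0.05 in limma, 0, 0 and 1 of these 20 were higher and 0, 3 and 3 lower, beside the shares of all genes given above for each direction. Sox7, an endothelial transcription factor gene among them, had differences of -0.25 ± 0.26, -1.03 ± 0.28 and -0.99 ± 0.26 (limma adjusted p = 1.00, 0.267 and 0.158).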

How the data were processed

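Per the file headers and the submitters' processing notes, the authors summarised the arrays by RMA with the R package affy into log2 intensities per probe set and fitted limma models. The sources used here give neither their versions nor the genome build of the array annotation. The deposited log2 values were used without further scaling.

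The platform table pairs 21776 of 28763 probe sets with 1 gene symbol, 1592 with several and 5395 with none. For names, 21685 were found by gene ID in the RefSeq gene table (GRCm38.p6). The probe set with the highest mean was kept per gene, which left 19931 genes, with no filter on dim probe sets. Limma (version 3.58.1, R 4.3.3) fitted group means over all 14 arrays with 10 residual and 3.50 prior degrees of freedom, with Benjamini-Hochberg adjustment over all genes and a threshold of 0.05, 2-sided. Precision is limited by the number of arrays. The procedure was tested on simulated data.

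The members, lists and tests were chosen with earlier results of these data known. Values per array are given for Fdft1 and, in each comparison, for the members called or the 4 with the smallest p, and from each related list up to 3 genes were named by smallest p. Per-array values of Hmgcs1, Mvd and Npc1 were added after their values were seen.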

Additional observations from a re-analysis of the deposited data

Results flagged for a closer look

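In groups of 4 arrays, of which 54 were tested over the members, 1 array stood apart from the others of its genotype in 3 cases by Dixon's criterion, and chance alone sets apart about 1 in 20 groups. Hmgcs1 read 11.10 in Irx3-/-;Irx5-/- replicate 3. Mvd read 8.52 in Irx3-/-;Irx5+/- replicate 4, the array whose description names another genotype. Scap read 8.84 in Irx3-/-;Irx5+/- replicate 3, below the other arrays of that group.

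The mean difference of Lss on loss of Irx3 had opposite signs in Irx5+/- and Irx5-/- hearts. Lss was dim, with a mean signal of 7.53, below every array median (7.89 to 7.99). A filter on dim probe sets left it out, so this result has no value there. Every Irx3-/-;Irx5+/- array was above the mean of the Irx5+/- arrays, and every double mutant array was below the mean of the Irx5-/- arrays. Single arrays overlapped in both comparisons. Irx3-/-;Irx5+/- replicate 1 read 7.35 and Irx5+/- replicate 3 read 7.36, while Irx5-/- replicate 2 read 7.51 and double mutant replicate 3 read 7.65. The interaction was -0.64 ± 0.20 (log2, SE) and did not pass in limma (adjusted p = 1.00).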

How the results depend on the processing

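Alternatives were leaving out each array, the replicate number as a block, the sarcomere mean as a term, centring of array medians, a filter on dim probe sets, the mean of a gene's probe sets, fits of the compared groups alone (not run for the interaction) and a trended, robust variance. The filter on dim probe sets left out Lss, Tm7sf2 and Ebp. Replicate numbers do not pair the arrays: deviations of same-numbered arrays correlated at -0.18 to 0.19 (median -0.06, 19 pairs). With the replicate block, 0 members and 0 genes in all passed in the double mutant against Irx5+/-, in place of 1 and 4, and Fdft1 differed by 1.05. The 1 member is Fdft1, whose contrast chose the list, so the count is no test of it. With the sarcomere mean as a term, 0 members passed there, and the members' median differences in Irx3-/-;Irx5+/-, Irx5-/- and the double mutant were -0.021, 0.11 and 0.082. Leaving out 1 array gave a count of 0 to 1 there, with 0 without Irx5+/- replicate 2 or without replicate 3 or 4 of the double mutant. The members' median in Irx5-/- ran from 0.14 to 0.28, with the 0.28 without Irx5+/- replicate 1. Covariation with Fdft1 was called for 0 to 1 members, the 1 without replicate 1 or 2 of the double mutant. Covariation with the sarcomere list was called for 0 to 2: none without Irx5+/- replicate 1, 2 or 3, replicate 2 or 3 of Irx3-/-;Irx5+/-, or replicate 1 or 3 of the double mutant, and 2 when its replicate 2 was left out. Members above every reference array on all mutant arrays numbered 3 to 5 with Fdft1 counted. Tm7sf2 and Npc2 were added without Irx5+/- replicate 2 and Lss and Npc1 without replicate 3, a setting chosen after seeing the data. Mvk remained the 1 member below. In some alternative 15, 10 and 11 of 27 members turned direction in Irx3-/-;Irx5+/-, Irx5-/- and the double mutant against Irx5+/-, while Fdft1, Sc5d, Stard4 and Mvk did not. The cause of these shifts was not tested. Standard errors reached 0.40 against Irx5+/- and 0.53 in the interaction (both Ebp), so differences of that size and larger could be missed with 3 or 4 arrays a group. Sc5d in Irx5-/-, at 0.83 ± 0.20, missed the adjusted threshold too.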
